A study of Mus musculus with 12 samples.

Results

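The nuclear genes for subunits of the respiratory chain and of the ATP synthase were followed in cultured keratinocytes, newborn skin and 30-day skin of the mouse. Members were the probe sets whose platform annotation gave a single gene symbol beginning with Nduf, Uqcr or Atp5, was Sdha, Sdhb, Sdhc or Sdhd, or ran from Cox4 to Cox8 followed by letters or digits; Cox7a1 and Cox8b were left out. They came to 154 of 20380 probe sets with a single symbol, and to 82 of 12393 genes when each gene was represented by its probe set with the highest mean. By complex, 33 of the genes belong to complex I, 4 to complex II, 8 to complex III, 15 to complex IV and 17 to complex V. The remaining 5 are Ndufaf genes, which encode assembly factors of complex I and are no subunits. Ndufa4 and Cox7a2l were counted with complex IV.

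Gene expression had been measured on 12 Affymetrix arrays, 1 per RNA sample. The 5 cultures were primary keratinocytes of newborn mice, each made from the pooled cells of 5 animals, kept in medium low in calcium for at most 3 days and never passaged. Cultures 1 and 2 were of a mixed C57, DBA and FVB background and cultures 3 to 5 were FVB. The 5 samples of skin from mice aged 30 days were all of the mixed background, and the 2 samples of newborn skin were both FVB, so that age and strain coincided within skin. No genotype, transgene or treatment is named in the labels. Nothing there states whether different skin samples were taken from different mice, and the p-values reflect only how far these arrays vary, part of which may be technical variation. Values are log2 signals, so a difference of 1 is a 2-fold difference, and the precision is limited by the number of arrays. A gene was called higher or lower when its limma adjusted p (Benjamini-Hochberg over all 12393 genes) was under 0.05. Signals of different genes come from different probes and were not ranked against each other.

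The respiratory chain sits in the inner mitochondrial membrane. Complex I takes electrons from NADH and complex II takes them from succinate, both pass them to ubiquinone, complex III hands them on to cytochrome c, and complex IV transfers them to oxygen. Complexes I, III and IV pump protons as they do so, and complex V, the ATP synthase, lets the protons flow back and makes ATP. Most subunits are encoded in the nucleus, as are all members described here, and some subunits of complex IV and complex V exist as isoforms from separate genes that are used in particular tissues.

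The members were mostly bright on these arrays. For 77 of the 82, the mean of each group lay above 6.06, the highest median of any array over genes with a single symbol, compared with 47.6% of all genes. The exceptions were Cox4i2, Cox6b2, Cox7c, Ndufaf5 and Ndufaf7. Cox7c, a small ubiquitous subunit of complex IV, had group means of 4.55 in culture, 4.40 in newborn skin and 4.65 in 30-day skin on the brighter of its 2 probe sets, and no difference was called on it. The median SD between replicates was 0.15 in culture and 0.17 in 30-day skin for the members, beside 0.17 and 0.15 for all genes.

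Newborn skin had the highest group mean for 52 of the 82 members, 63.4%, whereas it had the highest mean for 30.1% of all genes. The mean over all members was 9.59 and 9.63 in the newborn samples, between 9.30 and 9.41 in the cultures and between 9.23 and 9.45 in the samples of 30-day skin, so the newborn samples lay above every other sample. The mean of all genes ran from 6.57 to 6.60 in newborn skin, from 6.48 to 6.54 in culture and from 6.54 to 6.56 in 30-day skin. The same order was seen for complexes I, II, IV and V taken separately, each of which had both newborn samples above all 10 other samples. The mean of complex V, for example, was 10.56 and 10.55 in newborn skin, 10.18 to 10.32 in culture and 10.12 to 10.31 in 30-day skin. Complex IV kept this order without its isoform Cox6a2, at 9.58 and 9.59 in newborn skin against 9.33 to 9.43 in the other samples. For complex III the newborn values of 10.15 and 10.18 overlapped the culture values, 9.94 to 10.18. The mean of the assembly factors was 6.33 and 6.38 in the mixed-strain cultures, 6.63, 6.70 and 6.69 in the FVB cultures, 6.46 and 6.43 in newborn skin and 6.05 to 6.45 in 30-day skin, so that the newborn samples lay between the cultures of the different strains. Cell numbers were not measured, and in whole tissue a smaller share of a cell type cannot be told apart from less RNA per cell.

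**Figure D1:**
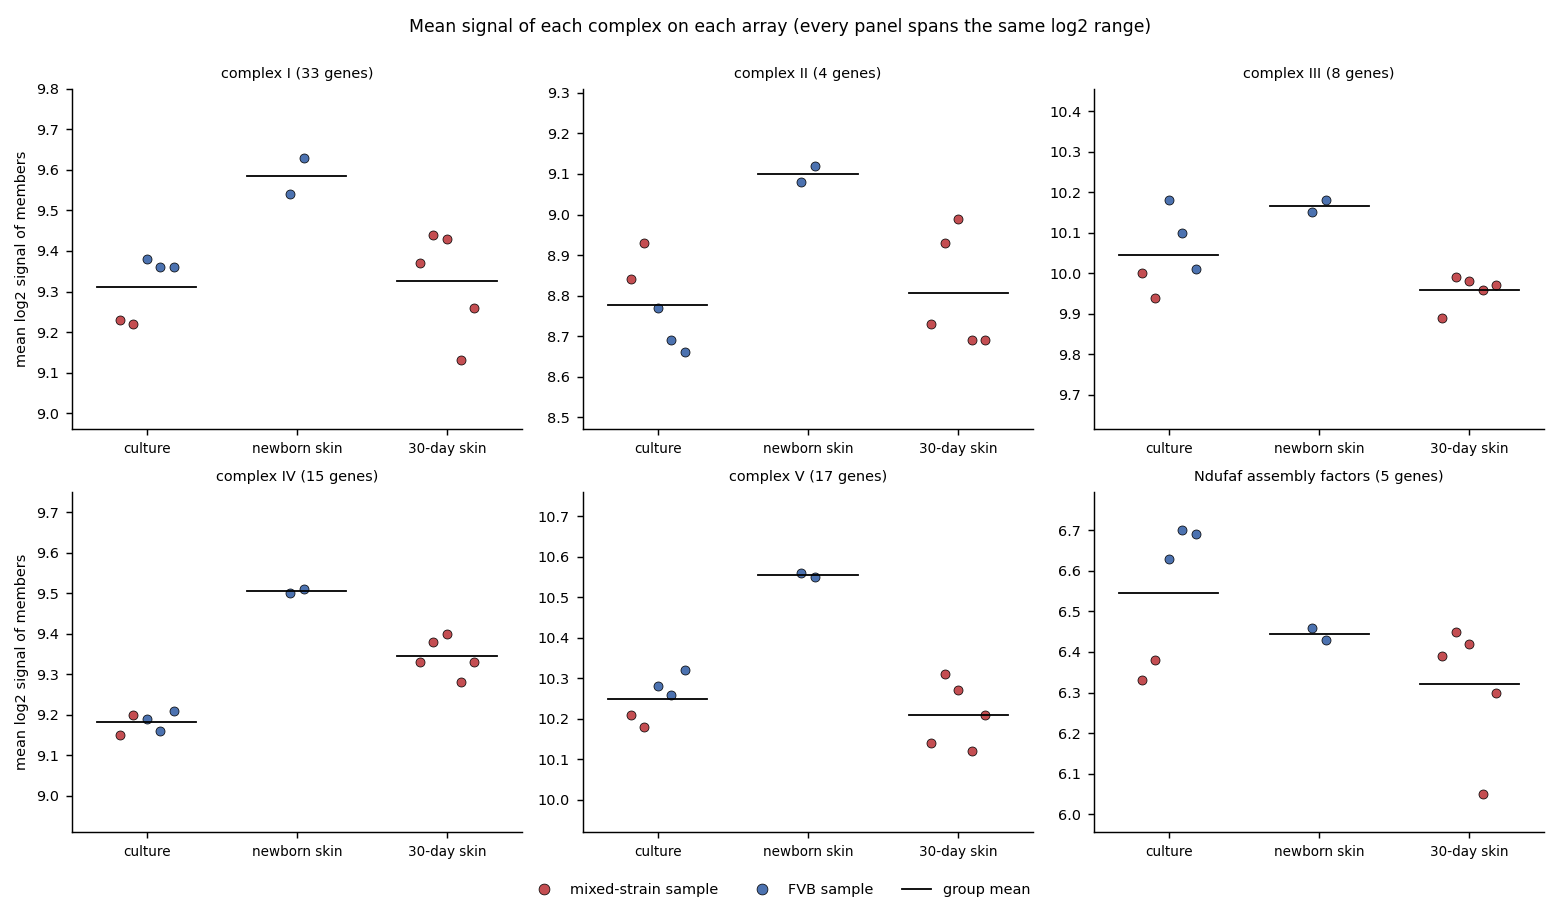
Mean log2 signal of the members of each complex on each array (y axis), by group (x axis), with points coloured by the strain background and a line at each group mean; every panel spans the same log2 range. Both newborn samples lie above all other samples for complexes I, II, IV and V. The gap between the cultures (9.15 to 9.21) and 30-day skin (9.28 to 9.40) in complex IV closes without Cox6a2 (9.33 to 9.39 and 9.34 to 9.43).

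In culture against newborn skin, 29 of the 82 members were called lower and 0 higher, beside 18.6% of all genes called lower and 17.9% called higher. The median difference over the members was -0.23, beside 0.01 over all genes. In 30-day against newborn skin, 22 members were called lower and 0 higher, beside 9.84% and 5.91% of all genes, with a median of -0.29 beside -0.01. At an unadjusted limma p under 0.05, 2 members were higher and 34 lower in culture, and 1 was higher and 36 lower in 30-day skin. At that threshold, of all 12393 genes, 2725 were higher and 2672 lower in culture, and 1373 higher and 2096 lower in 30-day skin. These comparisons share the newborn arrays, so their results are not independent of each other. In culture against 30-day skin the members went both ways: 17 were called higher, beside 26.5% of all genes, 9 were called lower, beside 21.9%, and the median was 0.00, beside 0.02. The differences were small. A difference of at least 2-fold was seen for Cox6a2 and Sdhb in culture against newborn skin, where 12.8% of all genes reached that size, and for Cox6a2 in culture against 30-day skin (12.3%). The signals of the dim Cox6b2 also differed by that much in culture and in 30-day skin against newborn skin (3.99% of all genes in the latter).

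Arrays centred on their median, which raised the median of all genes by 0.15 in culture against 30-day skin and by 0.18 in culture against newborn skin, gave 33 higher and 5 lower members in the former, beside 39.6% and 16.0% of all genes, and 5 higher and 15 lower in the latter, beside 31.3% and 13.9%. Repeated quantile normalisation gave 19 higher and 21 lower in culture against 30-day skin, beside 31.0% and 19.6%. A further scaling set the mean of 20 epithelial junction genes equal on all arrays, and 12 of these genes were themselves called higher in culture in each of its comparisons with skin. Whether their expression per cell is equal in the groups was not tested. This scaling lowered the median of all genes by 0.46, 0.87 and 0.41 in the order culture against 30-day skin, culture against newborn skin and 30-day against newborn skin. It called no member higher in these 3 comparisons and 59, 81 and 66 of the 82 lower, beside 65.7%, 84.4% and 50.6% of all genes. A higher value in culture than in 30-day skin was thus called for no member on the junction scale. The members' median against newborn skin changed with the scaling. In culture it was -0.23 with repeated quantile normalisation, -0.05 with median centring and -1.10 with junction centring, beside 0.10, 0.19 and -0.86 over all genes. In 30-day skin it was -0.25, -0.27 and -0.70, beside 0.01, 0.02 and -0.42. The newborn group rested on 2 arrays: the count of 29 lower members in culture became 14 without newborn replicate 2, and the count of 22 in 30-day skin became 4 without newborn replicate 1, 2 without newborn replicate 2, 12 without 30-day replicate 4 and 13 without 30-day replicate 5, where a lone newborn sample is assumed to vary like the other groups. Of the calls against newborn skin, those of 13 members in culture (Ndufa1, Ndufa3, Ndufb10, Ndufb11, Ndufv2, Sdhb, Uqcrh, Cox6a2, Cox6b1, Cox6b2, Atp5e, Atp5h and Atp5o) and of 2 in 30-day skin (Cox6b1 and Atp5o) were kept whichever sample was left out. With strain as a covariate, which these samples can estimate from the cultures alone, 5 members were called lower in 30-day skin, and the median difference was -0.17. The counts without a sample or with strain as a covariate were not set beside shares of all genes. Whether the members lost calls more than other genes was not tested.

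**Figure D2:**
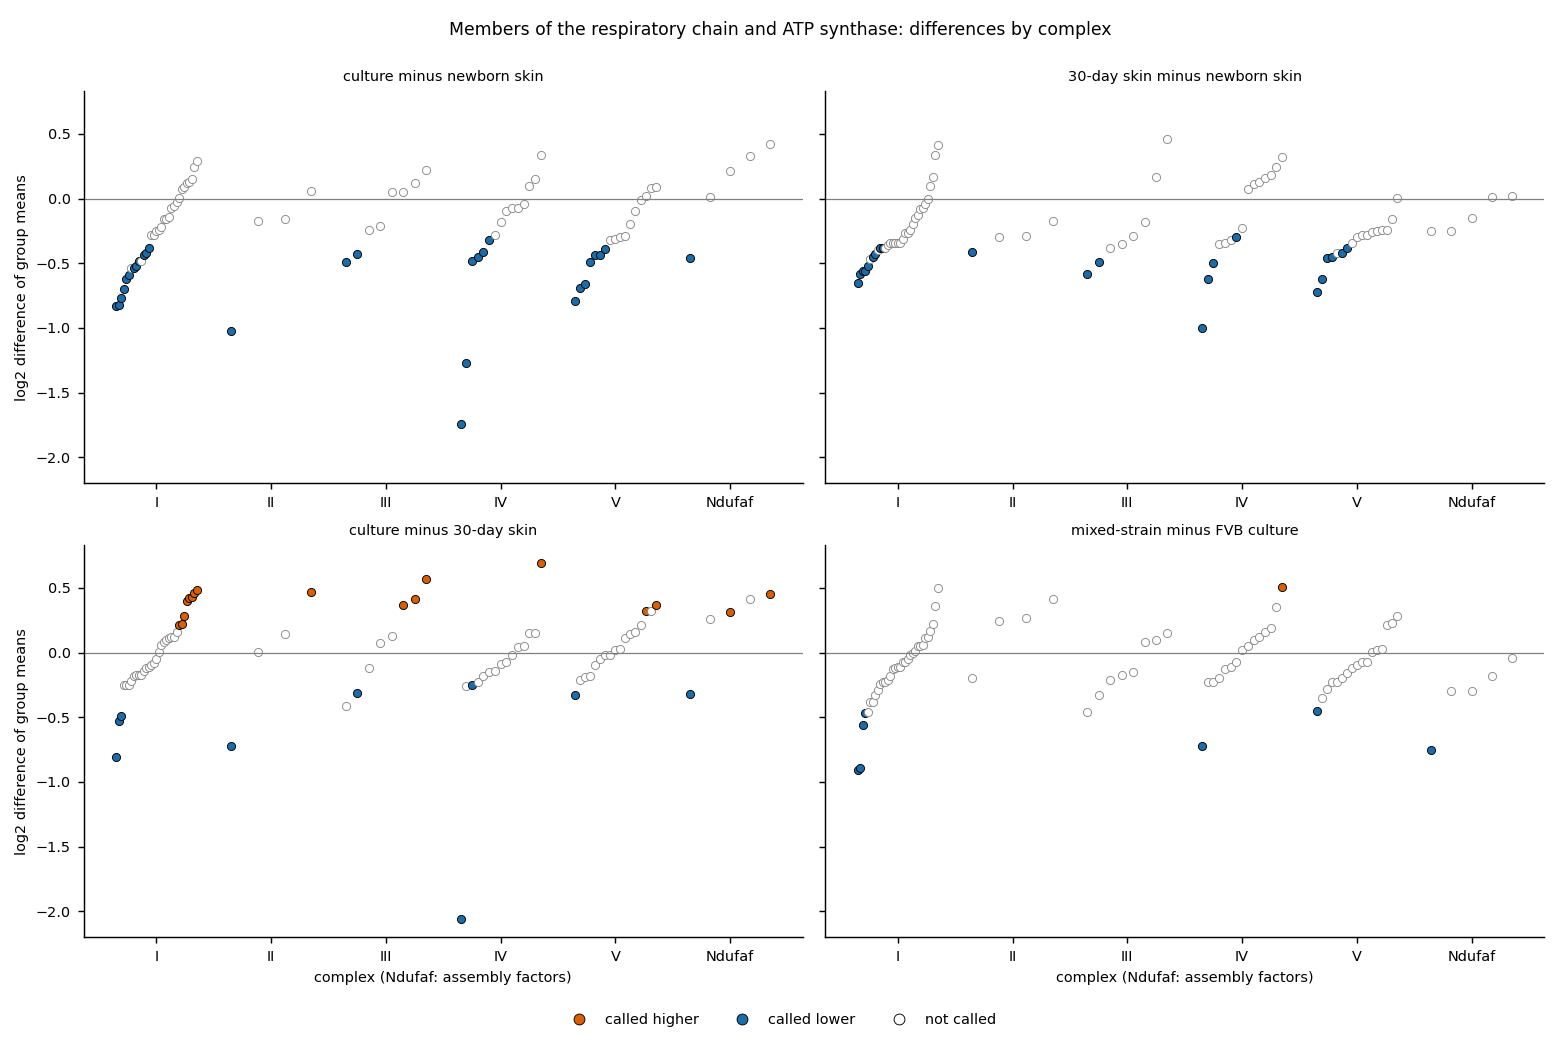
Difference of group means on the log2 scale (y axis) for each of the 82 members, ordered within its complex (x axis), in the 4 comparisons; orange points were called higher, blue points lower and open points were not called. All called points lie below 0 in both comparisons with newborn skin, relative to the scale of the deposited values, and the lowest point is Cox6a2 at -2.06 in culture against 30-day skin.

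Complex I had 12 of 33 members lower in culture than in newborn skin, or 36.4% beside 18.6% of all genes. Complex I also had 9 lower in 30-day than in newborn skin, or 27.3% beside 9.84%. Of its 6 core subunits, 5 were called lower in culture, where 18.6% of all genes were, and of these calls only that of Ndufv2 was kept both with median centring and whichever sample was left out. Ndufv2, an iron-sulphur core subunit beside the NADH-binding site, gave 9.58, 9.54, 9.98, 9.86 and 9.53 in cultures 1 to 5, 10.35 and 10.46 in newborn skin and 10.03, 10.08, 10.03, 9.77 and 9.85 in replicates 1 to 5 of 30-day skin. The newborn samples were the highest and overlapped neither other group. The difference was -0.70 ± 0.14 (SE; 5 and 2 samples; limma adjusted p = 0.00102) in culture and -0.45 ± 0.14 (adjusted p = 0.0414) in 30-day skin, a call that was lost without either newborn sample (-0.51 and -0.40), without 30-day replicate 3, 4 or 5 (-0.41 to -0.47), with strain as a covariate (-0.22) and with median centring (-0.42). Ndufs3, a core subunit on the way to ubiquinone, was 10.04 and 9.92 in newborn skin against 9.43 to 9.81 in culture and 9.18 to 9.58 in 30-day skin, again without overlap. It differed by -0.44 ± 0.13 in culture (limma adjusted p = 0.0153) and by -0.56 ± 0.13 in 30-day skin (adjusted p = 0.00901), and both calls were lost without newborn replicate 1 (-0.38 and -0.50) or 2 (-0.50 and -0.63). Ndufv1, which binds NADH, differed by -0.42 ± 0.11 in culture (limma adjusted p = 0.00859), Ndufs7 by -0.54 ± 0.16 (adjusted p = 0.0125) and Ndufs8 by -0.38 ± 0.12 (adjusted p = 0.0242). These 3 calls, on 2 iron-sulphur subunits and the flavoprotein, were lost without newborn replicate 2 (-0.35, -0.54 and -0.44), those of Ndufs7 and Ndufs8 also without replicate 1 (-0.55 and -0.33), and with Ndufs3 they were lost under median centring (-0.21 to -0.37). The core subunit that was not called was Ndufs1, the largest of the NADH-oxidising arm, at 0.07 ± 0.14 in culture and -0.04 ± 0.14 in 30-day skin. None of the 6 core subunits was called in culture against 30-day skin, where they ran from -0.25 to 0.12.

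Among the accessory subunits of complex I, the largest differences from newborn skin were in the membrane arm. Ndufb11 measured 9.87, 9.75, 9.96, 9.77 and 9.54 in culture, 10.65 and 10.57 in newborn skin and 10.71, 10.09, 10.08, 10.14 and 10.33 in 30-day skin. All cultures lay below all skin samples. The difference was -0.83 ± 0.16 from newborn skin (limma adjusted p = 0.000829) and -0.49 ± 0.12 from 30-day skin (adjusted p = 0.00374). Ndufa3, a small membrane subunit, had the same order, with 10.09 to 10.26 in culture against 10.89 and 11.03 in newborn skin and 10.54 to 10.90 in 30-day skin. It differed by -0.77 ± 0.12 (limma adjusted p = 0.000106) and -0.53 ± 0.09 (adjusted p = 0.000157). Ndufb10 was at 8.51 and 8.47 in the mixed-strain cultures, 8.99, 8.99 and 9.18 in the FVB cultures, 9.59 and 9.72 in newborn skin and 9.00, 9.13, 8.98, 8.77 and 9.15 in 30-day skin. Here the newborn samples stood above both other groups, and the cultures divided by strain. The difference was -0.82 ± 0.18 in culture (limma adjusted p = 0.00204) and -0.65 ± 0.18 in 30-day skin (adjusted p = 0.0248), and the latter became -0.08 with strain as a covariate and was not called without newborn replicate 1 (-0.71) or 2 (-0.58). Ndufb5, another membrane-arm subunit, was lower in 30-day skin by the limma fit at -0.58 ± 0.15 (adjusted p = 0.0151), but was not called with strain as a covariate (-0.35) or without newborn replicate 1 (-0.64) or 2 (-0.52).

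Against 30-day skin, 8 of the 27 accessory subunits of complex I were higher in culture, a share of 29.6% close to the 26.5% of all genes, and 3 were lower, or 11.1% beside 21.9%. Ndufa2, in the NADH-oxidising arm, gave 9.34, 9.33, 9.79, 9.69 and 9.67 in culture, 9.52 and 9.67 in newborn skin and 9.40, 9.21, 8.99, 8.85 and 8.95 in 30-day skin. Replicate 1 of 30-day skin overlapped the cultures, the rest of that group lay below them, and the newborn values lay within the culture range. The difference was 0.48 ± 0.12 (limma adjusted p = 0.00417), or 0.26 and not called with strain as a covariate. Ndufs4, an accessory subunit whose loss is known for causing Leigh syndrome, was higher by 0.46 ± 0.13 (limma adjusted p = 0.00827). Its dimmest probe set, with group means of 4.84 in culture and 5.35 in 30-day skin, ran the other way, and the mean of its 3 probe sets differed by 0.10 with no call. Ndufb1 was higher by 0.43 ± 0.14 (limma adjusted p = 0.0170), again with no call under a strain covariate (0.20). Under junction centring these 3 differences were 0.02 for Ndufa2, -0.0005 for Ndufs4 and -0.03 for Ndufb1. The largest difference the other way was that of Ndufv3, a small subunit of the NADH-binding module, with 9.20, 9.30, 8.62, 8.73 and 8.91 in culture and 9.96, 10.00, 9.92, 9.36 and 9.58 in 30-day skin. The groups did not overlap, and the difference was -0.81 ± 0.15 (limma adjusted p = 0.000414). The newborn samples, at 9.50 and 9.36, lay between the group means and were not called against either group.

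The members of complex II differed in opposite directions between culture and 30-day skin. Sdhb, its iron-sulphur subunit, gave 9.36, 9.43, 9.84, 9.46 and 9.49 in cultures 1 to 5, 10.57 and 10.50 in newborn skin and 10.05, 10.27, 10.48, 10.16 and 10.23 in 30-day skin. Every culture was below every skin sample, and both newborn samples were above all samples of 30-day skin. The difference was -1.02 ± 0.14, or 2.02-fold, from newborn skin (limma adjusted p = 3.58e-05) and -0.72 ± 0.10 from 30-day skin (adjusted p = 4.08e-05). Sdha, the flavoprotein that oxidises succinate, ran from 8.71 to 9.23 in culture, was 9.06 and 9.21 in newborn skin and ran from 8.67 to 9.20 in 30-day skin. These ranges overlap, and no comparison called it. The membrane anchor Sdhd gave 8.86, 8.78, 8.61, 8.57 and 8.56 in culture, 8.69 and 8.54 in newborn skin and 8.12, 8.32, 8.30, 8.13 and 8.18 in 30-day skin, which was the lowest group throughout. It was higher in culture than in 30-day skin by 0.47 ± 0.09 (limma adjusted p = 0.000362), or 0.004 under junction centring, and lower in 30-day than in newborn skin at -0.41 ± 0.11 (adjusted p = 0.0261). The latter call was lost without newborn replicate 1 (-0.33) or 2 (-0.48), without 30-day replicate 4 (-0.39) or 5 (-0.40) and with quantile normalisation repeated (-0.30). The other anchor, Sdhc, was not called, with 0.14 ± 0.12 in culture against 30-day skin and -0.30 ± 0.15 in 30-day against newborn skin.

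In complex III, Uqcrc1 and the Rieske protein were higher in culture than in 30-day skin, and the hinge protein was lower. Uqcrc1, a large core protein that faces the matrix, measured 10.72, 10.59, 10.62, 10.58 and 10.45 in culture, 10.37 and 10.37 in newborn skin and 9.75, 10.11, 10.09, 10.10 and 10.05 in 30-day skin. The groups did not overlap, in the order culture, newborn skin, 30-day skin. The difference from 30-day skin was 0.57 ± 0.09 (limma adjusted p = 6.92e-05), or 0.11 and not called under junction centring, and that from newborn skin, 0.22 ± 0.12, was not called. Uqcrfs1, which carries the Rieske iron-sulphur cluster, gave 9.92, 9.85, 9.84, 9.68 and 9.70 in culture, 10.00 and 10.01 in newborn skin and 9.41, 9.48, 9.12, 9.50 and 9.63 in 30-day skin, the lowest group. It was higher in culture than in 30-day skin by 0.37 ± 0.10 (limma adjusted p = 0.00513), or -0.09 under junction centring, and lower in 30-day than in newborn skin at -0.58 ± 0.13 (adjusted p = 0.00676), a call lost without newborn replicate 1 (-0.59) or 2 (-0.57). Uqcrh, the hinge protein that helps cytochrome c dock, was lower in culture, at 8.88 to 9.18 against 9.46 and 9.55 in newborn skin and 9.22 to 9.40 in 30-day skin. Its differences were -0.49 ± 0.11 (limma adjusted p = 0.00205) and -0.31 ± 0.08 (adjusted p = 0.00546), the latter being -0.16 and not called with the arrays centred on their median. Uqcr11 was lower than newborn skin in both groups, at -0.43 ± 0.15 and -0.49 ± 0.15 (limma adjusted p = 0.0377 and 0.0376), and neither was called without newborn replicate 2, at -0.27 and -0.34. In culture the call also needed cultures 1 and 2 (-0.36 and -0.39 without them) and was -0.25 with median centring, and in 30-day skin it was lost without newborn replicate 1 (-0.64), without 30-day replicate 1, 4 or 5 (-0.44 to -0.48), with quantile normalisation repeated (-0.41) and with strain as a covariate (-0.16). Uqcrc2, the other core protein, was not called, with -0.12 ± 0.09 in culture against 30-day skin. Uqcrb, a small subunit, ran from 11.70 to 12.62 in culture, was 11.99 and 12.11 in newborn skin and ran from 12.21 to 12.90 in 30-day skin. Its difference between culture and 30-day skin, -0.41 ± 0.19, was not called.

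Complex IV is cytochrome c oxidase. Cox6a2, its isoform of subunit 6a used in heart and skeletal muscle, had the largest difference of all members in culture against either skin. It gave 6.68, 6.59, 6.58, 6.55 and 6.70 in culture, 8.33 and 8.39 in newborn skin and 8.89, 8.68, 8.98, 8.43 and 8.45 in 30-day skin. The 3 groups did not overlap. The cultures were 4.18-fold below 30-day skin, a difference of -2.06 ± 0.11 (limma adjusted p = 8.66e-10), and 3.34-fold below newborn skin, at -1.74 ± 0.14 (adjusted p = 1.96e-07). Its ubiquitous counterpart Cox6a1 measured 11.54 to 11.97 in culture, 11.87 in each newborn sample and 11.83 to 12.13 in 30-day skin, with overlapping groups and differences of -0.14 ± 0.09, -0.07 ± 0.12 and 0.07 ± 0.12, none called. Cox6a2 moved with genes of skeletal muscle. Of 21 muscle genes that are no members, all 21 were called lower in culture than in 30-day skin and 18 lower than in newborn skin, and their mean was 5.02 to 5.28 in culture, 8.59 and 8.65 in newborn skin, 9.37 and 9.46 in 30-day replicates 4 and 5, and 10.16 to 10.26 in 30-day replicates 1 to 3. The lower Cox6a2 values of 30-day skin, 8.43 and 8.45, were those of replicates 4 and 5. The part of the muscle in the Cox6a2 difference was not tested.

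Subunit 6b had a different pair of patterns. Cox6b1, the ubiquitous form on the outer face of the enzyme, gave 11.28, 11.36, 11.48, 11.35 and 11.51 in culture, 11.85 and 11.84 in newborn skin and 11.35, 11.41, 11.35, 11.26 and 11.36 in 30-day skin. Newborn skin was the highest group and the others overlapped. The difference was -0.45 ± 0.10 in culture (limma adjusted p = 0.00208) and -0.50 ± 0.10 in 30-day skin (adjusted p = 0.00303), or -0.37 and not called in 30-day skin with strain as a covariate. Cox6b2, an isoform known from testis, was dim but also highest in newborn skin, at 5.96, 5.80, 5.45, 5.26 and 5.41 in culture, 6.70 and 6.99 in newborn skin and 6.05, 5.62, 5.84, 5.75 and 5.95 in 30-day skin. All its values in culture and 30-day skin lay below 6.06, the highest array median, and the table carries no detection calls, so no fold is given. The difference of signals was -1.27 ± 0.18 in culture (limma adjusted p = 4.91e-05). In 30-day skin the means were 5.84 against 6.84 (SE of the difference 0.18, adjusted p = 0.00148), a call that was lost without newborn replicate 2 (-0.86).

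Among the further subunits of complex IV, Cox4i1, a large nuclear subunit in contact with the catalytic core, was 11.82 and 11.80 in newborn skin against 11.19 to 11.46 in culture and 10.82, 11.39, 11.21, 11.19 and 11.32 in 30-day skin. The newborn samples stood above all others. It was lower at -0.48 ± 0.14 in culture (limma adjusted p = 0.0127) and -0.62 ± 0.14 in 30-day skin (adjusted p = 0.00625), and both calls were lost when either newborn sample was left out, with differences of -0.46 and -0.49 in culture and -0.61 and -0.64 in 30-day skin. In culture it was -0.30 and not called with median centring. The hypoxia-responsive isoform Cox4i2 was dim, at 5.24 to 5.64 in culture, 5.36 and 5.51 in newborn skin and 5.57 to 5.67 in 30-day skin. Its difference of -0.25 ± 0.09 in culture against 30-day skin (limma adjusted p = 0.0260) was not called without culture 1, 3 or 4 or without 30-day replicate 4 or 5, with -0.22 to -0.24, nor with quantile normalisation repeated (-0.09), median centring (-0.10) or strain as a covariate (-0.14). Cox5b, which binds zinc, and Cox7a2, the widely expressed form of subunit 7a, were also lower in culture than in newborn skin, at -0.41 ± 0.11 and -0.32 ± 0.09 (limma adjusted p = 0.0101 and 0.0143), and neither was called without newborn replicate 1 (-0.41 and -0.27) or 2 (-0.41 and -0.36) or with median centring (-0.23 and -0.14). Cox7a2 was also lower in 30-day skin, at -0.30 ± 0.09 (limma adjusted p = 0.0428), with no call when any of the newborn samples or any 30-day replicate but the first was left out (-0.25 to -0.34). Cox6c, Cox7a2l, which takes part in joining complexes into supercomplexes, Cox5a, Cox8a and Cox8c were called in none of the 3 comparisons. Ndufa4 is named for complex I and was later assigned to complex IV. It gave 9.94, 10.05, 10.78, 10.75 and 10.63 in culture, 10.02 and 10.17 in newborn skin and 9.70, 9.98, 9.93, 9.64 and 9.48 in 30-day skin, so that the FVB cultures were above every other sample. It was higher in culture than in 30-day skin by 0.69 ± 0.17 (limma adjusted p = 0.00294), or by 0.25 and not called with strain as a covariate.

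**Figure D3:**
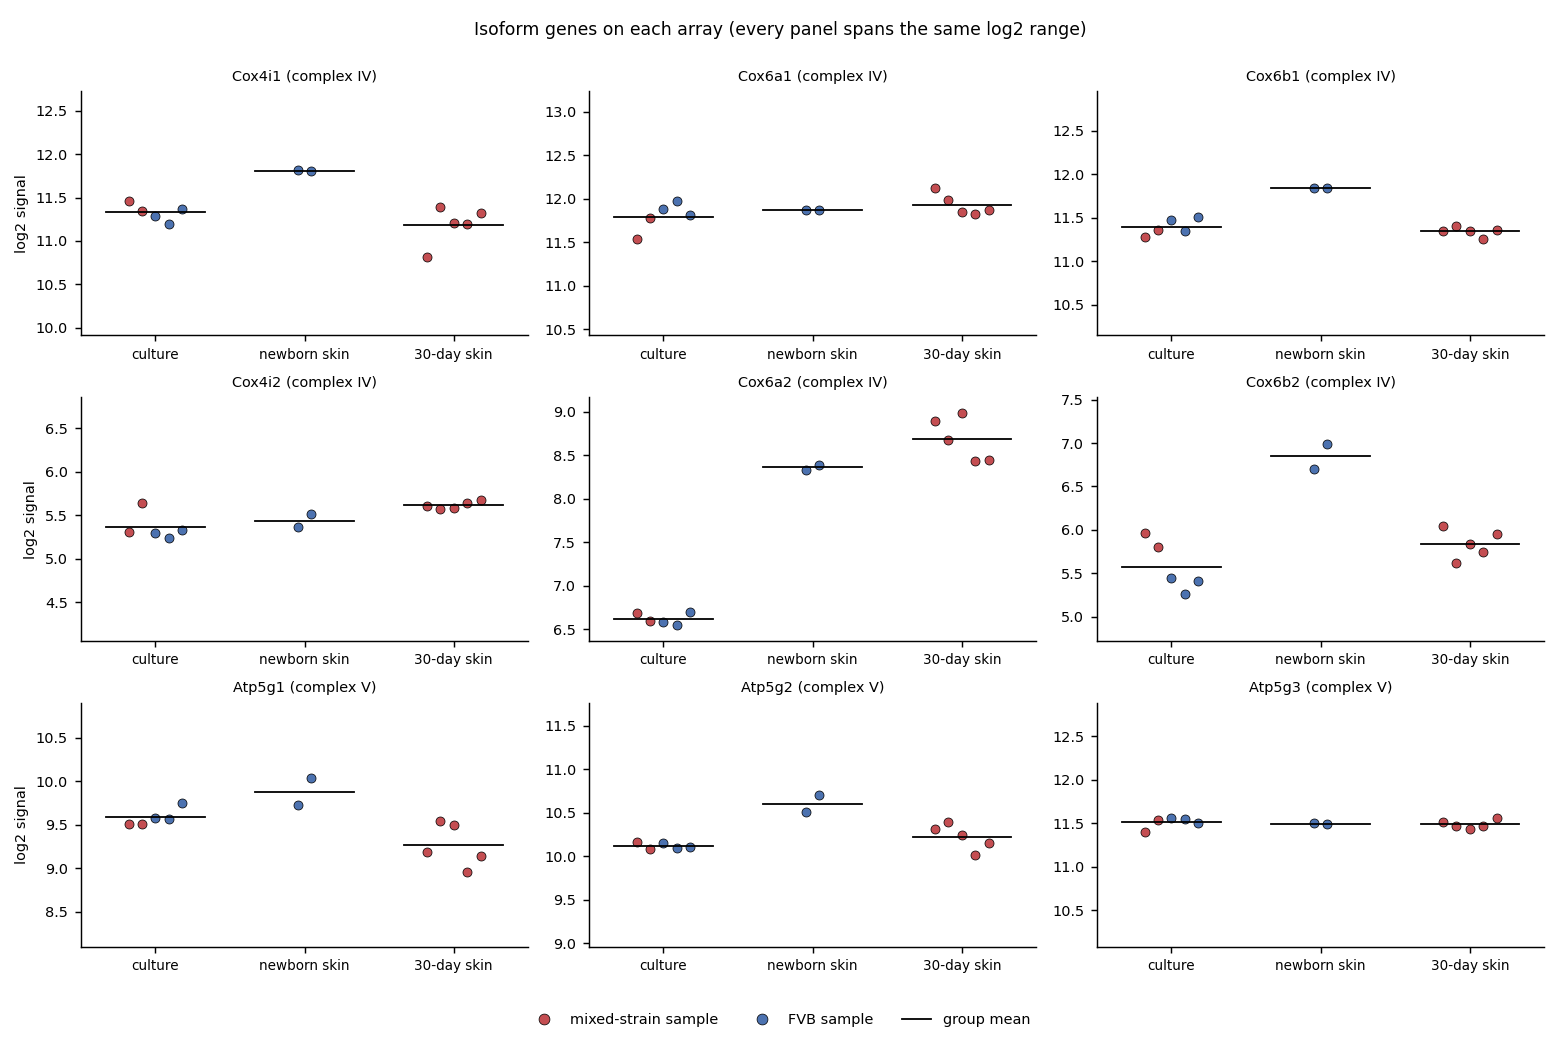
Log2 signal of isoform genes on each array (y axis) by group (x axis), with points coloured by strain background and lines at group means; every panel spans the same log2 range. Cox6a2 runs from 6.55 to 6.70 in culture and from 8.33 to 8.98 in skin, while Cox6a1 and Atp5g3 are level across the groups, and Cox6b1 and Cox6b2 are highest in newborn skin.

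In complex V, 7 of 17 members were lower in culture than in newborn skin, or 41.2% beside 18.6% of all genes. In 30-day skin 6 were lower than in newborn skin, or 35.3% beside 9.84%. Atp5o encodes the oligomycin sensitivity-conferring protein, which ties the catalytic head to the outer stalk. It gave 10.27, 10.19, 10.28, 10.14 and 10.19 in culture, 10.92 and 10.88 in newborn skin and 9.95, 10.21, 10.31, 10.13 and 10.33 in 30-day skin. Culture and 30-day skin overlapped, and the newborn samples lay above both. The difference was -0.69 ± 0.11 in culture (limma adjusted p = 0.000184) and -0.72 ± 0.11 in 30-day skin (adjusted p = 0.00055), and both calls held in every alternative that was run for them. Atp5e, the small epsilon subunit of the central stalk, was 10.68 and 10.62 in newborn skin against 9.66 to 10.08 in culture and 10.08 to 10.39 in 30-day skin. It differed by -0.79 ± 0.13 in culture (limma adjusted p = 0.000176) and by -0.46 ± 0.13 in 30-day skin (adjusted p = 0.0244), the latter being lost without either newborn replicate (-0.43 and -0.49) and with strain as a covariate (-0.23). Atp5h, a subunit of the outer stalk, was lower by the same comparisons at -0.66 ± 0.12 (limma adjusted p = 0.000428) and -0.45 ± 0.12 (adjusted p = 0.0174), the latter again with no call without newborn replicate 1 (-0.51) or 2 (-0.40) or with strain as a covariate (-0.22). Atp5a1 and Atp5b, which encode the alpha and beta subunits of the catalytic head, were called in no comparison. Atp5b was 10.52 or higher in all 5 cultures, was 10.82 and 10.65 in newborn skin and ran from 10.04 to 10.73 in 30-day skin. A dimmer probe set of Atp5a1 had means of 10.31 in culture and 10.88 in newborn skin and was called lower, while the brighter set had 11.22 and 11.32.

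The proton-carrying ring of complex V is built from subunit c, for which 3 genes encode the same mature protein with different import sequences. Atp5g1 gave 9.51, 9.51, 9.58, 9.57 and 9.75 in culture, 9.72 and 10.04 in newborn skin and 9.18, 9.54, 9.50, 8.95 and 9.14 in 30-day skin, where replicates 2 and 3 stood above the others. It was lower in 30-day than in newborn skin at -0.62 ± 0.16 (limma adjusted p = 0.0148), a call lost without newborn replicate 2 (-0.45) and with strain as a covariate (-0.50). Its higher value in culture than in 30-day skin, 0.32 ± 0.12 (limma adjusted p = 0.0352), was not called without culture 3, 4 or 5 or without 30-day replicate 1, 4 or 5, at 0.24 to 0.33, nor with quantile normalisation repeated (0.20), and was -0.14 under junction centring. Atp5g2 was 10.08 to 10.16 in culture, 10.51 and 10.70 in newborn skin and 10.02 to 10.39 in 30-day skin, lower than newborn skin at -0.49 ± 0.11 (limma adjusted p = 0.00263) and -0.38 ± 0.11 (adjusted p = 0.0293). The former was not called without newborn replicate 2 (-0.39), the latter without newborn replicate 1 or 2 (-0.48 and -0.29) or 30-day replicate 4 or 5 (-0.33 and -0.37), and neither on the mean of the gene's probe sets (-0.15 and -0.21). Atp5g3 stayed within 11.40 to 11.56 on all 12 arrays, and its differences were 0.02 ± 0.07, 0.02 ± 0.09 and 0.00 ± 0.09. Whether the 3 genes differ from each other in these changes was not tested.

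Promoter sequences are shown for Cox6a1, for both isoform genes of subunit 6b and for the c subunit genes, since genes for the same subunit gave different values in these sets. The promoter of Cox6a2 was not analysed here, so the pair of subunit 6a isoforms is not compared. Of the 82 members, 68 were found in the RefSeq promoter table (GRCm38.p6), with 73 promoters. Each sequence is the 250 bases before the start of the gene, 5′ to 3′ on its own strand, and capitals mark matches to the cores searched on both strands: GCGCATGCG for NRF1 (nuclear respiratory factor), CCGGAAG for ETS factors and AAGATGGC for YY1. The NRF1 core can match both strands in overlap when it reads GCGCATGCGC.
Cox6a1, chr5:115348959-115349208, minus strand: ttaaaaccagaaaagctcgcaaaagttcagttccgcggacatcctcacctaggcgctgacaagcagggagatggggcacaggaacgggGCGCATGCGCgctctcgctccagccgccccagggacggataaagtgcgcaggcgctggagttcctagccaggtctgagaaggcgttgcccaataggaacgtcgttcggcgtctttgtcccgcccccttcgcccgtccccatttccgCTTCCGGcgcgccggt
Cox6b1, chr7:30626115-30626364, minus strand: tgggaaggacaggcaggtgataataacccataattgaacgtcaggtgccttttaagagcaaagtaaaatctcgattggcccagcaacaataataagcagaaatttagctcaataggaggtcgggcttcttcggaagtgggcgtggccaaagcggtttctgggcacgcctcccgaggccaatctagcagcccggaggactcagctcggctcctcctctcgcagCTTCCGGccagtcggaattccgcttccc
Cox6b2, chr7:4753095-4753344, minus strand: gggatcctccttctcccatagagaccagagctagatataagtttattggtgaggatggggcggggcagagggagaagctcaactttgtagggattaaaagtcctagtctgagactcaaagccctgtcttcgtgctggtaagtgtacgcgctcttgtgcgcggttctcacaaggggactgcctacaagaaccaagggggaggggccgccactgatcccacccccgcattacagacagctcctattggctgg
Atp5g1, chr11:96075632-96075881, minus strand: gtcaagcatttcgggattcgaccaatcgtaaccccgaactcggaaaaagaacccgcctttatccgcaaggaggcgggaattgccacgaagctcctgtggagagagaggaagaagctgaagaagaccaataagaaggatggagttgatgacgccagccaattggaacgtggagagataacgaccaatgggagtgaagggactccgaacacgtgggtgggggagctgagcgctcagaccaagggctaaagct
Atp5g2, chr15:102671048-102671297, minus strand: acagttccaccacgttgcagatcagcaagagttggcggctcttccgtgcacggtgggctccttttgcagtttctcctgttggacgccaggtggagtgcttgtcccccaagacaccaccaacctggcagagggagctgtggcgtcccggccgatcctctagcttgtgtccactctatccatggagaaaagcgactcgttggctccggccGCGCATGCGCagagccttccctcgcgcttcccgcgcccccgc
Atp5g3, chr2:73911327-73911576, minus strand: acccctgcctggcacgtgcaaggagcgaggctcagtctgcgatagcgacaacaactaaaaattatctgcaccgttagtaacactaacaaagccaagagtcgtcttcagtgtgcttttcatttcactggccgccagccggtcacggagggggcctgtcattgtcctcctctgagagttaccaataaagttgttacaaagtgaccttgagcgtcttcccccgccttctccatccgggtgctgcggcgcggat
The widely used Cox6a1 has an NRF1 and an ETS match and Cox6b1 has an ETS match, while none of the cores was found in the letters shown for Cox6b2. Among the c subunit genes, Atp5g2 has the NRF1 core, and Atp5g1 and Atp5g3 have none of the 3. In windows of 300 bases, 250 before and 50 after the start, the NRF1 core was found in 12.3% of the members' promoters and 1.75% of all 32851 promoters, the ETS core in 24.7% and 8.86%, and the YY1 core in 12.3% and 2.75%. Any of them was found in 42.5% and 12.5%. The members' windows had a median GC content of 59.0%, beside 52.7% for all promoters, and the motif shares were not adjusted for it.

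Of the 5 assembly factors of complex I, 2 were higher and 1 lower in culture than in 30-day skin, beside 26.5% and 21.9% of all genes. Ndufaf7, a methyltransferase that acts on a core subunit, gave 6.28, 6.28, 6.45, 6.72 and 6.58 in culture and 5.90, 6.19, 5.99, 5.87 and 6.10 in 30-day skin, with the newborn samples at 6.21 and 6.30. The cultures were above all samples of 30-day skin. It was higher by 0.45 ± 0.10 (limma adjusted p = 0.00166), and Ndufaf4 by 0.31 ± 0.10 (adjusted p = 0.0199). With strain as a covariate neither was called (0.27 and 0.29), and under junction centring they were -0.01 and -0.15. The call of Ndufaf4 was also lost without culture 4 or 30-day replicate 2 or 3 (0.26 to 0.28) and on the mean of its probe sets (0.08). Ndufaf3, another assembly factor of complex I, went the other way, at -0.32 ± 0.11 against 30-day skin (limma adjusted p = 0.0250) and -0.46 ± 0.14 against newborn skin (adjusted p = 0.0187), and was not called without newborn replicate 2 in the latter (-0.37) or without culture 1 or 2 or 30-day replicate 2 or 3 in the former (-0.25 to -0.30). With the arrays centred on their median, the call of Ndufaf3 against 30-day skin was lost too. None of the 5 assembly factors was called in 30-day against newborn skin.

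**Figure D4:**
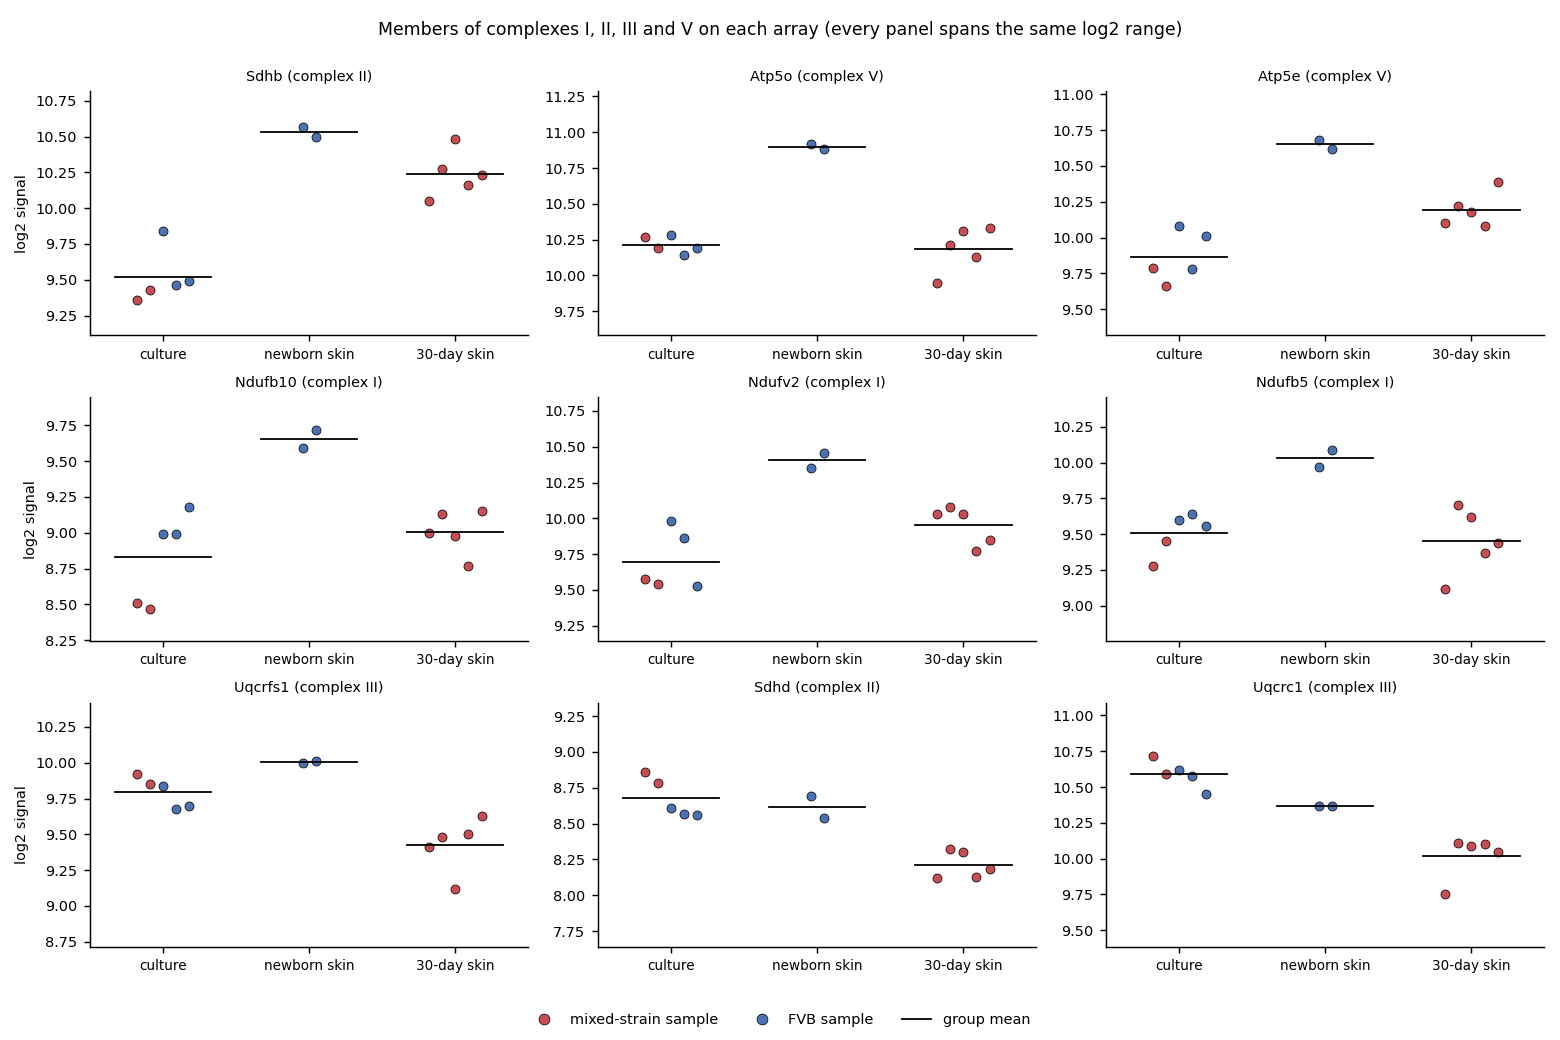
Log2 signal of 9 members on each array (y axis) by group (x axis), with points coloured by strain background and lines at group means, all panels spanning the same log2 range. Sdhb, Atp5o, Atp5e, Ndufb10, Ndufv2 and Ndufb5 are highest in both newborn samples, Uqcrfs1 and Sdhd are lowest in 30-day skin, and Uqcrc1 is highest in the cultures (10.45 to 10.72).

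Within culture, 8 of the 82 members were called between the mixed-strain and FVB samples: 7 were lower in the mixed-strain cultures, beside 6.66% of all genes, and 1 was higher, beside 3.18%. The median over the members was -0.11, beside -0.01 over all genes. Ndufa6, an accessory subunit of complex I, gave 7.94 and 8.04 in the mixed-strain cultures and 8.99, 8.97 and 8.71 in the FVB cultures, a difference of -0.91 ± 0.20 (limma adjusted p = 0.0113). Ndufa5, another accessory subunit, gave 7.99 and 7.92 against 8.87, 8.86 and 8.82, at -0.89 ± 0.21 (adjusted p = 0.0154 in limma). Its second probe set showed the same order, 6.89 and 6.94 against 7.76, 7.73 and 7.48. In both genes the culture groups did not overlap. In skin, Ndufa6 was 8.52 and 8.97 in FVB newborn samples and 8.03 to 8.74 in mixed-strain 30-day samples, which do overlap. Ndufa4 differed by -0.72 ± 0.14 (limma adjusted p = 0.00520), Ndufaf1 by -0.75 ± 0.21 (adjusted p = 0.0368), Ndufb10 by -0.56 ± 0.13 (adjusted p = 0.0117), Ndufb9 by -0.47 ± 0.13 (adjusted p = 0.0371) and Atp5md, a small subunit of the membrane part of complex V, by -0.45 ± 0.13 (adjusted p = 0.0456). Cox6b2 was the member higher in the mixed-strain cultures, by 0.51 ± 0.14 (limma adjusted p = 0.0313). None of the 8 calls was kept whichever culture was left out: without culture 1 the differences of Ndufa6, Ndufa5, Ndufa4, Ndufaf1, Ndufb10, Ndufb9, Atp5md and Cox6b2 were -0.85, -0.93, -0.67, -0.65, -0.58, -0.44, -0.41 and 0.43, and without culture 2 that of Ndufa4 alone was still called.

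The strain comparison rested on few arrays: repeated quantile normalisation gave 5 higher and 5 lower members, junction centring 0 and 2, and leaving out culture 1, 2, 3, 4 or 5 gave 0, 1, 4, 3 and 5 members lower. Cultures 1 and 2 were also the pair of arrays with the smallest spread of differences, 0.508 of the median over pairs within groups, and with the 4 closest pairs of arrays averaged, an alternative chosen after the data were seen, 0 members were called. In Uqcr10, a small subunit of complex III, 2 dimmer probe sets gave 8.24 and 8.03 (mixed) against 7.44, 7.07 and 7.05 (FVB) and 6.62 and 6.43 against 4.68, 4.58 and 4.55, whereas the probe set used for the gene gave 10.14 and 10.05 against 10.38, 10.07 and 10.27. A probe set of Ndufv1 likewise gave 8.80 and 8.99 against 7.75, 7.60 and 7.76, beside 9.19 and 9.35 against 9.16, 9.23 and 9.26 on the brightest. Of 7 melanocyte genes, 5 were called higher in the mixed-strain cultures, with a list mean of 8.42 in each of them and 7.02 to 7.03 in the FVB cultures. Of 9 suprabasal keratinocyte genes, 3 were called lower, with list means of 6.49 and 6.50 against 7.09 to 7.20, and of 10 fibroblast genes 4 were called higher, with means of 6.32 and 6.34 against 5.75 to 5.83. The same cultures were separated by the 3 prime minus 5 prime signal of actin, a sign of RNA integrity, which was 0.21 and 0.35 against 0.56 to 0.74. Their part in the strain differences was not tested.

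**Figure D5:**
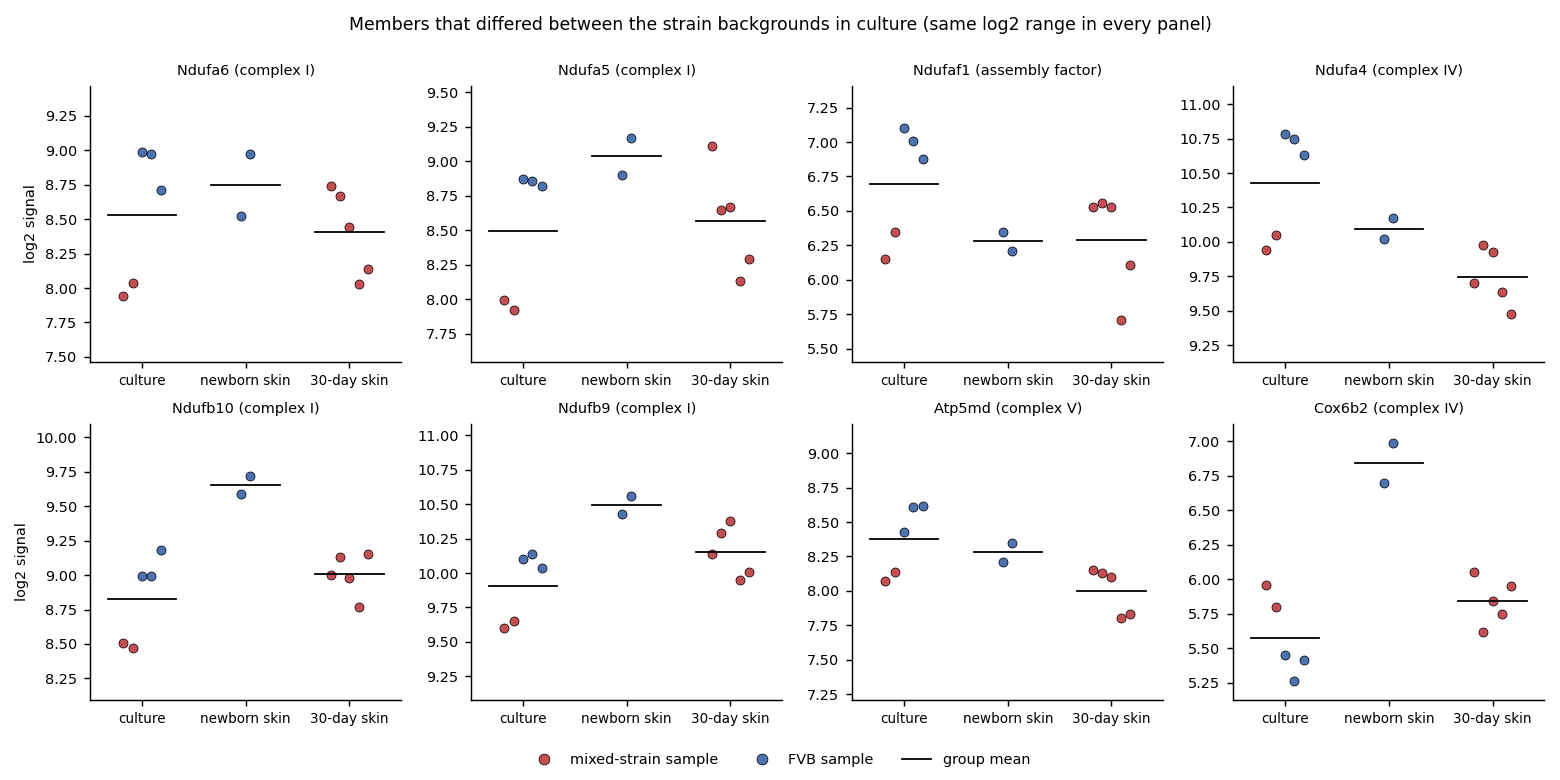
Log2 signal on each array (y axis) by group (x axis) for the 8 members called between mixed-strain and FVB cultures, with points coloured by strain background and lines at group means; all panels span the same log2 range. The mixed-strain cultures lie below the FVB cultures for 7 genes and above them for Cox6b2.

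Genes that serve the respiratory chain but are no members were described by lists. Of 74 mitochondrial ribosomal proteins, which translate the subunits encoded in mitochondrial DNA, 50 were higher and 0 lower in culture than in 30-day skin, or 67.6% and 0.0% beside 26.5% and 21.9% of all genes, with a median of 0.47. Under junction centring the median was 0.01, beside -0.45 over all genes. There 12 were higher and 13 lower, or 16.2% and 17.6% beside 8.64% and 65.7% of all genes. Against newborn skin 19 were higher and 6 lower in culture, or 25.7% and 8.11% beside 17.9% and 18.6% of all genes, and 19 were lower in 30-day skin, or 25.7% beside 9.84%. Of 35 assembly factors of the complexes, the Ndufaf members included, 15 were higher and 3 lower in culture than in 30-day skin, or 42.9% and 8.57%, and 10 higher and 5 lower than in newborn skin, or 28.6% and 14.3%. Under junction centring these counts were 3 and 13, or 8.57% and 37.1% beside 8.64% and 65.7% of all genes, and 1 and 25, or 2.86% and 71.4% beside 2.15% and 84.4%. Sco2, which delivers copper to complex IV, had the largest difference of them, at 7.44 to 7.82 in culture and 5.97 to 6.22 in skin, a difference of 1.53 ± 0.09 (limma adjusted p = 4.29e-09). Among 15 electron carriers and related proteins, cytochrome c1 (Cyc1, a subunit of complex III outside the naming rule) was below newborn skin in both groups, at -0.51 ± 0.11 and -0.61 ± 0.11 (limma adjusted p = 0.00183 and 0.0016). Cytochrome c (Cycs) was higher in culture than in 30-day skin by 0.65 ± 0.11 (adjusted p = 0.000228 in limma), or 0.19 and not called under junction centring. The only gene of mitochondrial DNA on the list that was measured, ND5 of complex I, was lower in culture at -0.52 ± 0.13 and -0.56 ± 0.17 than in 30-day and newborn skin (limma adjusted p = 0.00391 and 0.0188), with no call against 30-day skin under a strain covariate (-0.39) or against newborn skin without newborn replicate 2 (-0.44) or with median centring (-0.38).

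Fatty acid oxidation and the citric acid cycle supply the electrons. Of 14 genes of mitochondrial beta-oxidation, 9 were lower and 0 higher in culture than in 30-day skin, or 64.3% lower beside 21.9% of all genes, and 8 lower and 0 higher than in newborn skin, or 57.1% beside 18.6%, with medians of -0.74 and -0.95. Decr1, which reduces intermediates of unsaturated fatty acids, differed by -1.93 ± 0.13 and -2.28 ± 0.17 (limma adjusted p = 1.38e-08 and 7.47e-08). Of 21 genes of the citric acid cycle and pyruvate dehydrogenase, 7 were higher and 7 lower in culture than in 30-day skin, 33.3% each way beside 26.5% and 21.9% of all genes. Pdk4, the kinase that switches pyruvate dehydrogenase off, differed by -3.36 ± 0.28 (limma adjusted p = 1.62e-07). Against newborn skin 2 of the 21 were higher and 8 lower in culture, or 9.52% and 38.1% beside 17.9% and 18.6% of all genes. Of 18 regulators of mitochondrial gene expression, 8 were higher and 2 lower in culture than in 30-day skin, or 44.4% and 11.1%. Under junction centring 3 were higher and 10 lower, or 16.7% and 55.6% beside 8.64% and 65.7% of all genes. Against newborn skin 8 regulators were higher and 1 lower in culture, or 44.4% and 5.56% beside 17.9% and 18.6% of all genes. The 1 lower gene, Ppargc1b, thus ran against most of the called regulators. Ppargc1b, a coactivator of genes for oxidative metabolism, was 6.90 and 6.85 in newborn skin, 5.44 to 6.13 in culture and 6.05 to 6.63 in 30-day skin, with both newborn samples above all others. It differed from newborn skin by -1.05 ± 0.17 in culture and -0.62 ± 0.17 in 30-day skin (limma adjusted p = 0.000239 and 0.0274), and the latter was not called without newborn replicate 1 or 2 (-0.59 and -0.64), without 30-day replicate 2 or 3 (-0.57) or with strain as a covariate (-0.28). Tfam, the main mitochondrial transcription factor, was not called in any comparison.

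Markers of other cell types differed between the groups together with these results. In culture, the list means were 5.16 to 5.34 for brown adipocytes, 5.63 to 5.76 for white adipocytes, 5.75 to 6.34 for fibroblasts and 5.15 to 5.39 for endothelium, against 5.95 to 6.46, 8.46 to 9.15, 10.38 to 11.08 and 6.20 to 6.90 over all skin samples. In skin, 9.84% of all genes were lower at 30 days than in newborn skin and 5.91% were higher. Lower were 4 of 9 brown adipocyte, 4 of 13 white adipocyte, 4 of 10 fibroblast, 7 of 10 endothelial and 1 of 4 erythroid genes. Higher were 14 of 14 hair, 9 of 21 skeletal muscle, 6 of 20 epithelial junction, 4 of 9 macrophage and 2 of 7 melanocyte genes. Some lists went both ways, with 1 white adipocyte gene higher. Suprabasal keratinocyte genes had 2 of 9 higher and 4 lower, basal keratinocyte genes 1 of 9 higher and 1 lower, and sebaceous gland genes 1 of 6 higher and 2 lower. Ucp1, the uncoupling protein that defines brown fat, was 6.44 and 6.38 in newborn skin and 5.13 to 5.40 in 30-day skin. Their part in the differences of the members was not tested. Within 30-day skin, replicate 4 had the lowest value of its group for 41 of the 82 members, beside 24.5% of all genes, and replicate 1 for 26, beside 28.2%. Replicate 1 had the highest actin 3 prime minus 5 prime difference of all arrays, 1.74, against 0.67 to 0.82 in the rest of its group. The newborn samples gave 0.99 and 1.14, above the cultures, at 0.21 to 0.74, and above all other samples of 30-day skin. The part of RNA integrity in the differences of the members from newborn skin was not tested.

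Where a called member had other probe sets, these mostly ran the same way. In culture against newborn skin, 18 of the 29 called members had 31 further probe sets, of which 27 had the same sign, 11 were called in the same direction and 0 in the opposite one. In 30-day against newborn skin the further probe sets numbered 13, with 10 of the same sign, 4 called in the same and 1 in the opposite direction. In culture against 30-day skin, 8 of 14 had the same sign, 6 were called in the same direction and 2 in the opposite one, and all 6 further probe sets above the array medians had the same sign. A further 8 probe sets name a member together with another gene, such as Ndufb4 with its copies Ndufb4b and Ndufb4c, and were not used because their signal cannot be assigned.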

How the data were processed

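The values are the log2 signals that the authors deposited for 12 single-colour Affymetrix arrays, made by RMA per the submitters' processing notes. RMA corrects background, quantile-normalises and summarises probes, and which version and settings were used was not given in the sources used here. Of 22690 probe sets, 20380 with a single gene symbol in the platform annotation were kept, and 691 with several symbols, 1555 with none and 64 controls were left out. Symbols were checked against RefSeq, where 20351 probe sets matched and 0 symbols changed. Each gene was represented by its probe set with the highest mean.

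Group means were fitted over all 12 arrays by the moderated test of limma 3.58.1 (lmFit, eBayes; R 4.3.3), two-sided, with Benjamini-Hochberg adjustment over 12393 genes and a threshold of 0.05, and the fit was tested on simulated data. Tables and figures were made in Python 3.11.15. The members and lists were chosen with earlier results of these data known. Named members were, per complex and comparison, up to 3 called genes with the largest difference in each direction and the uncalled gene with the largest difference, all isoform sets and the catalytic subunits. Further members and probe sets named in the text were chosen after their values were seen. The alternatives comprised other scalings, filters, probe-set summaries, variance models, a strain covariate, a replicate block and leaving out each sample. Promoters were read from a RefSeq table (GRCm38.p6). Protein sequences of the isoforms were not analysed here.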

Additional observations from a re-analysis of the deposited data

Results flagged for a closer look

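Within a group of 5 samples, 7 values among the 110 sets of values examined stood apart from the other 4 by Dixon's criterion, and chance alone gives about 1 in 20. Replicate 1 of 30-day skin held the low value in 3 of them. It gave 9.75 for Uqcrc1, where the other samples ran from 10.05 to 10.11. For Atp5b and Atp5a1, the beta and alpha subunits of the ATP synthase head, it gave 10.04 and 10.69, with the other samples from 10.55 to 10.73 and from 11.11 to 11.28. The same sample had the largest actin 3 prime minus 5 prime difference, 1.74, and its part in these values was not tested. Culture 3 was high for Sdhb, at 9.84 with the others from 9.36 to 9.49, and for Ndufs3, at 9.81 with the others from 9.43 to 9.52. Culture 2 was high for Cox4i2, at 5.64 against 5.24 to 5.33. Culture 5 was high for Atp5g1, at 9.75 against 9.51 to 9.58.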

How the results depend on the processing

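Over 77 results on named members, 1563 alternative values were computed. Direction was compared only for the 53 results that were called as reported. In 1329 values a called result kept its direction and call, or an uncalled result stayed uncalled with either sign. In 172 a called result kept the direction without the call, in 54 an uncalled result gained a call, and in 8 a called result turned. The 8 turned with junction centring in culture against 30-day skin, by its shift of all genes: Ndufaf7 -0.01, Ndufaf4 -0.15, Ndufs4 -0.0005, Ndufb1 -0.03, Uqcrq -0.05, Uqcrfs1 -0.09, Atp5md -0.09 and Atp5g1 -0.14. Of the 53 called results, 15 were called in every alternative that held the gene. Counts of members are given below as higher and lower, in the order culture against 30-day skin, culture against newborn skin, 30-day against newborn skin, and mixed-strain against FVB culture. Quantile normalisation repeated gave 19 and 21, 2 and 31, 1 and 19, and 5 and 5. Beside these stood 31.0% and 19.6%, 23.4% and 16.3%, 7.29% and 8.54%, and 3.63% and 4.41% of all genes. Median centring gave 33 and 5, 5 and 15, 0 and 18, and 1 and 8, beside 39.6% and 16.0%, 31.3% and 13.9%, 6.5% and 8.84%, and 3.09% and 6.79% of all genes. Junction centring gave 0 and 59, 0 and 81, 0 and 66, and 0 and 2, beside 8.64% and 65.7%, 2.15% and 84.4%, 2.07% and 50.6%, and 1.53% and 2.86% of all genes. For the alternatives that follow, the counts were not set beside shares of all genes. Array weights gave 15 and 15, 1 and 35, 0 and 34, and 5 and 12. A strain covariate gave, for the first 3, 8 and 18, 3 and 28, and 0 and 5. Without 30-day replicate 1 as well, chosen after seeing the data, it gave 9 and 20, 3 and 30, and 0 and 5. Averaging the 4 closest pairs of arrays, also chosen after seeing the data, gave 11 and 5, 0 and 11, 0 and 1, and 0 and 0. In the last comparison, leaving out the dimmest 40% of genes gave 0 higher, because the dim Cox6b2 was itself left out. There the mean of all probe sets gave 3 higher and fitting only the groups compared 3. The cause of the other changes was not tested. Leaving out each sample in turn gave 13 to 17 higher and 8 to 11 lower, 0 higher and 14 to 30 lower, 0 higher and 2 to 22 lower, and 0 to 1 higher and 0 to 5 lower. Deviations of same-numbered samples from their group means had correlations from -0.284 to 0.23, with no common direction. The deviations of the 2 newborn samples mirror each other, so these correlations cannot decide whether the numbers pair the samples. The replicate block gave 14 and 8, 0 and 26, 1 and 13, and 0 and 7. The planned averaging of near-identical arrays was not run because no pair met its limit. Dim genes such as Cox7c and Cox4i2 lie where signal and background cannot be separated in this table.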
